A study of Homo sapiens with 12 samples.

Results

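TRAIL, the death ligand encoded by *TNFSF10*, was followed together with its receptors and the proteins that its receptors recruit. The set held 9 genes, namely *TNFSF10*, *TNFRSF10A*, *TNFRSF10B*, *TNFRSF10C*, *TNFRSF10D*, *FADD*, *CASP8*, *CASP10* and *CFLAR*, and 8 of them had a row of their own among the 18417 genes measured with a row of 1 gene symbol. Where a gene had several rows, the brightest on average over the 12 arrays stood for it. *TNFRSF10C* lay only on a row that carried a 2nd gene symbol, so no value is given for it. *TNFSF10* was chosen by its lower signal after knockdown in serum, so all its values that rest on the 10% FBS arrays are descriptions with no test, and its only test is the one without serum. The study asked how expression of *LAPTM4B*, a lysosomal membrane protein, shapes the transcriptome of lung cancer cells. Calu-6, an established human lung cancer line, was the only line on the arrays. The 4 groups of 3 arrays were cells with siRNA against *LAPTM4B* (siLAPTM4B) in medium without serum, cells with control siRNA (siControl) without serum, siLAPTM4B cells in 10% fetal bovine serum (FBS) and siControl cells in 10% FBS. All cells received an siRNA pool by lipid transfection, and RNA was taken 72 h after transfection and 48 h after the change of medium. The siRNA was transient and pooled, the replicates were separate transfections of 1 cell line, and no untransfected cells were on the arrays.

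TRAIL is a trimeric ligand of the tumour necrosis factor family. It binds the death receptors DR4 (*TNFRSF10A*) and DR5 (*TNFRSF10B*), whose cytoplasmic death domains recruit the adaptor FADD, which in turn gathers the initiator caspases 8 and 10 into a death-inducing complex. The decoy receptors DcR1 (*TNFRSF10C*) and DcR2 (*TNFRSF10D*) bind TRAIL without passing on a full death signal, and c-FLIP (*CFLAR*) competes with caspase-8 inside the complex. Many lung cancer lines carry these receptors on their surface. In the RefSeq annotation *CFLAR*, *CASP10* and *CASP8* stand next to each other on chromosome 2, and the 4 receptor genes are neighbours on another chromosome.

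*TNFSF10* is the member with the widest range of signals, so its promoter is shown as the RefSeq window of build GRCh38.p14, chr3:172523381-172523680, minus strand, which holds 250 bases before and 50 after the start of transcription. The capitals mark bases 64 to 73 of the window, the reverse-strand match to the interferon-stimulated response element GAAANNGAAA.

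TNFSF10 promoter: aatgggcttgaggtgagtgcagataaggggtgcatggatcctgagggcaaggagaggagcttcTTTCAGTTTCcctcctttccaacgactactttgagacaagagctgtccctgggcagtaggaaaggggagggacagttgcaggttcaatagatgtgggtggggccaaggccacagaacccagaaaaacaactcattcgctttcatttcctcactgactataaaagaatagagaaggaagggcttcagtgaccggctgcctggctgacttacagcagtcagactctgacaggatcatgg

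On both strands this element was found in 3.57% of 34943 promoter windows of the same length. The AP-1 site TGANTCA, the FOXO site GTAAACA and the GC box GGGCGG had no match in the *TNFSF10* window and were present in 7.72%, 3.42% and 44.9% of the windows. *IRF1*, a transcription factor that binds interferon-stimulated elements, gave log2 differences, siLAPTM4B over siControl, of -0.19 ± 0.06 (SE) without serum (adjusted p = 0.14 by limma) and -0.20 ± 0.06 with 10% FBS (adjusted p = 0.13), and neither passed the threshold. Without serum over 10% FBS, *IRF1* gave -0.07 ± 0.06 in siLAPTM4B cells (adjusted p = 0.5) and -0.08 ± 0.06 in siControl cells (adjusted p = 0.4). Its part in the *TNFSF10* signal was not tested.

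The targeted gene followed its labels. *LAPTM4B* gave log2 signals of 10.45, 10.50 and 10.54 in siLAPTM4B cells without serum, against 11.94, 11.87 and 11.93 in siControl cells without serum. With 10% FBS it gave 10.01, 10.04 and 9.99 in siLAPTM4B cells, against 11.76, 11.75 and 11.80 in siControl cells. These are log2 fold changes of -1.42 ± 0.05 (SE, n = 3 arrays per group, adjusted p = 8.6e-06 by limma) and -1.75 ± 0.04 (adjusted p = 6.4e-07). All pairs of arrays correlated at 0.9922 to 0.9982 over the 33252 rows. The epithelial keratin *KRT8* lay at 12.76 to 12.99 on all arrays, whereas the epithelial cadherin *CDH1* lay at 6.10 to 6.29, close to the lower quartile of the arrays (6.14 to 6.19). Of the 4 leukocyte markers, *PTPRC* (CD45) lay below that quartile on all 12 arrays, while *CD3E*, *CD14* and *CD79A* lay above it on all, at 6.67 to 7.80. After serum withdrawal *CD14* was lower (-0.32 ± 0.08 in siLAPTM4B cells, adjusted p = 0.015 by limma, and -0.35 ± 0.05 in siControl cells, adjusted p = 0.0021) and *CD79A* higher (0.23 ± 0.05, adjusted p = 0.0094, and 0.29 ± 0.04, adjusted p = 0.0016, in these groups). Of the 3 fibroblast markers, *DCN* lay below the lower quartile on all arrays, *COL1A1* lay at 8.47 to 8.72 throughout, and *LUM* moved with the medium, at 6.51 to 7.18 without serum, against 8.39 to 9.14 with serum. The keratin *KRT7* also lay lower without serum (9.11 to 9.54, against 11.00 to 11.17 with serum) and the adhesion gene *EPCAM* higher (9.33 to 9.89, against 8.20 to 9.05). With knockdown *LUM* was lower without serum (-0.50 ± 0.08, adjusted p = 0.02 by limma) and with serum (-0.52 ± 0.07, adjusted p = 0.0067), *KRT7* was lower without serum (-0.37 ± 0.04, adjusted p = 0.0048) and *EPCAM* was higher with serum (0.51 ± 0.11, adjusted p = 0.037). The part of these shifts in the serum and knockdown results was not tested.

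The *TNFSF10* signal was highest in siControl cells with serum and lowest without serum. It gave log2 signals of 5.48, 5.56 and 5.50 in siLAPTM4B cells without serum, against 5.77, 5.55 and 5.69 in siControl cells without serum. With 10% FBS it gave 6.52, 6.35 and 6.69 in siLAPTM4B cells, against 7.54, 7.52 and 7.77 in siControl cells. The siControl arrays with serum thus stood apart from all others, the siLAPTM4B arrays with serum came next, and the siRNA groups without serum overlapped. All 6 arrays without serum gave *TNFSF10* a signal below the lower quartile of all rows of the array, at percentiles of 13.6 to 15 in siLAPTM4B cells and 14.9 to 18.2 in siControl cells. With serum the percentiles were 28.3 to 33.5 in siLAPTM4B cells and 46.7 to 50.4 in siControl cells, so even the highest *TNFSF10* signals reached only the middle of the arrays.

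As a description, the *TNFSF10* signal of siLAPTM4B cells in serum was 0.47 times that of siControl cells, a log2 fold change of -1.09 ± 0.10 (SE). Without serum the log2 fold change was -0.16 ± 0.06 (unadjusted p = 0.031, adjusted p = 0.27 by limma over 19460 rows), which did not pass the threshold of an adjusted p below 0.05 used for every call here. The difference between media, that is the knockdown effect without serum minus that with serum, was 0.93 ± 0.12 on the log2 scale and is given with no test. Serum withdrawal, the group without serum over the group with 10% FBS, went with log2 fold changes of -1.01 ± 0.08 in siLAPTM4B cells and -1.94 ± 0.08 in siControl cells, again with no test. With every value below an array's lower quartile set to that quartile, the withdrawal values shrank to -0.35 in siLAPTM4B cells and -1.45 in siControl cells, the knockdown value without serum became 0.01 (adjusted p = 0.9), and the difference between media became 1.10. In bulk RNA, fewer cells with the transcript and less transcript per cell cannot be told apart.

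**Figure D1:**
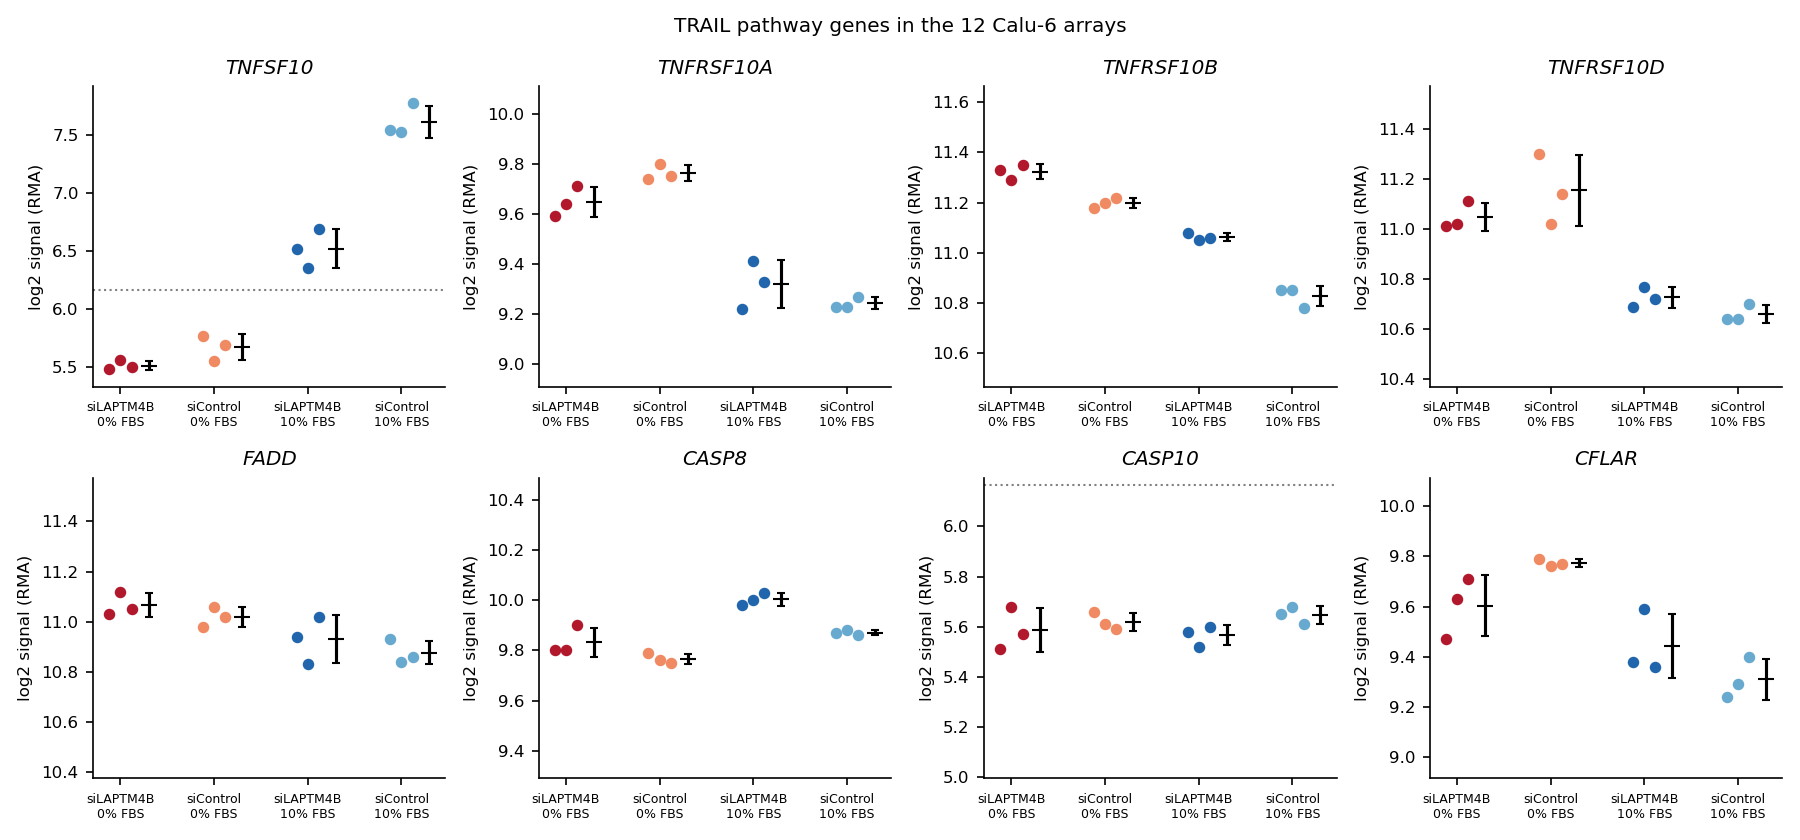
Log2 signal (RMA) of the 8 measured genes on each of the 12 arrays. Points are arrays, black bars the mean ± SD of the 3 arrays of a group, and the dotted line in the *TNFSF10* and *CASP10* panels is the mean lower quartile of the arrays. Axis ranges differ between panels. *TNFSF10* lies at 5.48 to 5.77 without serum and reaches 7.77 in siControl cells with 10% FBS, while *CASP10* stays at 5.51 to 5.68 in all groups.

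The death receptor genes were higher after serum withdrawal. *TNFRSF10B*, which encodes DR5, gave 11.33, 11.29 and 11.35 in siLAPTM4B cells without serum, against 11.18, 11.20 and 11.22 in siControl cells without serum. With 10% FBS it gave 11.08, 11.05 and 11.06 in siLAPTM4B cells, against 10.85, 10.85 and 10.78 in siControl cells. The 4 groups did not overlap, in the order siLAPTM4B without serum, siControl without serum, siLAPTM4B with serum and siControl with serum from high to low. Serum withdrawal raised *TNFRSF10B* by 0.26 ± 0.05 in siLAPTM4B cells (log2, SE, adjusted p = 0.0035 by limma) and by 0.37 ± 0.04 in siControl cells (adjusted p = 0.00031). Knockdown raised it by 0.24 ± 0.04 in serum (adjusted p = 0.026), 1.18 times the siControl signal. Without serum the difference was 0.12 ± 0.04 (unadjusted p = 0.016, adjusted p = 0.19). The call in serum was lost when any 1 of the 6 arrays was left out, over an adjusted p range of 0.00092 to 0.10 for the 15 alternatives run. The knockdown effects in the 2 media differed by -0.11 ± 0.05 (adjusted p = 0.48).

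*TNFRSF10A*, which encodes DR4, gave 9.59, 9.64 and 9.71 in siLAPTM4B cells without serum, against 9.74, 9.80 and 9.75 in siControl cells without serum. In 10% FBS it gave 9.22, 9.41 and 9.33 in siLAPTM4B cells, against 9.23, 9.23 and 9.27 in siControl cells. The arrays without serum all lay above those with serum, and the siRNA groups overlapped in serum only. Withdrawal raised *TNFRSF10A* by 0.33 ± 0.06 in siLAPTM4B cells (log2, SE, adjusted p = 0.0051 by limma) and by 0.52 ± 0.04 in siControl cells (adjusted p = 4.4e-05), or 1.25 and 1.43 times the signal in serum. Knockdown gave -0.12 ± 0.05 without serum (unadjusted p = 0.037, adjusted p = 0.29) and 0.07 ± 0.06 with serum (adjusted p = 0.58), and neither passed.

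The decoy receptor gene *TNFRSF10D* followed the death receptors. It gave 11.01, 11.02 and 11.11 in siLAPTM4B cells without serum, against 11.30, 11.02 and 11.14 in siControl cells without serum. In serum its signals were 10.69, 10.77 and 10.72 in siLAPTM4B cells, against 10.64, 10.64 and 10.70 in siControl cells. The siRNA groups overlapped in both media, and the media did not overlap. Withdrawal raised *TNFRSF10D* by 0.32 ± 0.05 in siLAPTM4B cells (log2, SE, adjusted p = 0.002 by limma) and by 0.49 ± 0.07 in siControl cells (adjusted p = 0.0011). Knockdown gave -0.11 ± 0.07 without serum (adjusted p = 0.55) and 0.06 ± 0.05 with serum (adjusted p = 0.57). The receptor genes are related, and how far their probes share sequence was not checked here.

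*CFLAR* was called higher after serum withdrawal in siControl cells. It gave 9.47, 9.63 and 9.71 in siLAPTM4B cells without serum, against 9.79, 9.76 and 9.77 in siControl cells without serum. The signals with 10% FBS were 9.38, 9.59 and 9.36 in siLAPTM4B cells, against 9.24, 9.29 and 9.40 in siControl cells. The siControl arrays separated by medium, while the siLAPTM4B arrays of the 2 media overlapped. Withdrawal raised *CFLAR* by 0.46 ± 0.05 in siControl cells (log2, SE, adjusted p = 0.00026 by limma), and the value in siLAPTM4B cells was 0.16 ± 0.08 (adjusted p = 0.22). The difference between these withdrawal effects, siLAPTM4B minus siControl, was -0.30 ± 0.10 (unadjusted p = 0.01, adjusted p = 0.29) and did not pass. Another row of the gene gave 0.38 ± 0.05 in siLAPTM4B cells (adjusted p = 0.00059) and 0.64 ± 0.07 in siControl cells (adjusted p = 0.00038), so the call in siLAPTM4B cells depends on the row. Knockdown gave -0.17 ± 0.06 without serum (unadjusted p = 0.023, adjusted p = 0.24) and 0.13 ± 0.07 with serum (adjusted p = 0.39).

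*CASP8*, the initiator caspase, was called lower after serum withdrawal in siLAPTM4B cells. It gave 9.80, 9.80 and 9.90 in siLAPTM4B cells without serum, against 9.79, 9.76 and 9.75 in siControl cells without serum. In 10% FBS the signals were 9.98, 10.00 and 10.03 in siLAPTM4B cells, against 9.87, 9.88 and 9.86 in siControl cells. The siLAPTM4B arrays lay above the siControl arrays in each medium by small amounts. Withdrawal lowered *CASP8* in siLAPTM4B cells, with a log2 fold change of -0.17 ± 0.05 (SE, adjusted p = 0.043 by limma), and gave -0.10 ± 0.04 in siControl cells (adjusted p = 0.086). The call in siLAPTM4B cells was lost in 8 of 15 alternatives, 5 of which left out 1 array (any but siLAPTM4B replicate 3 without serum), with adjusted p between 0.0069 and 0.16. Knockdown gave 0.06 ± 0.05 without serum (adjusted p = 0.59) and 0.13 ± 0.04 with serum (unadjusted p = 0.014, adjusted p = 0.15).

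The adaptor gene *FADD* changed little, with signals from 10.83 to 11.12 over the 12 arrays. Withdrawal gave 0.14 ± 0.06 in siLAPTM4B cells (log2, SE, adjusted p = 0.15 by limma) and 0.14 ± 0.04 in siControl cells (adjusted p = 0.046), and the siControl value had an adjusted p of 0.061 with the replicate number as a block and lost its call in 10 of 15 alternatives, including when any array but siControl replicate 1 with serum was left out. Knockdown gave 0.05 ± 0.05 without serum and 0.05 ± 0.06 with serum (adjusted p = 0.72 and 0.74). *CASP10*, the relative of *CASP8*, gave 5.51 to 5.68 on all arrays, below the lower quartile of each, and passed no test. The intervals of its log2 fold changes were -0.16 to 0.09 for knockdown without serum, -0.19 to 0.03 for knockdown with serum, -0.11 to 0.15 for withdrawal in siLAPTM4B cells and -0.12 to 0.07 for withdrawal in siControl cells (95%). Signals this low limit what can be said about *CASP10* transcript.

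Counted over the members, serum carried most of the calls. Serum withdrawal in siControl cells raised 5 of the 7 members tested (*TNFRSF10A*, *TNFRSF10B*, *TNFRSF10D*, *FADD* and *CFLAR*), against 13.2% of all 19460 rows, and lowered 0 of 7, against 12.9% of rows. With the replicate number as a block the count of higher members was 4. In siLAPTM4B cells withdrawal raised 3 of 7 (*TNFRSF10A*, *TNFRSF10B* and *TNFRSF10D*), against 9.74% of rows, and lowered 1 (*CASP8*), against 11.0%. The members tested, apart from *CASP10*, lay at percentiles of 68.8 to 91.7 of the arrays, while the shares cover rows of every signal. Shares over rows of like signal were not taken. The median log2 fold change of the 7 genes was 0.16 in siLAPTM4B cells and 0.37 in siControl cells, beside medians over all rows of -0.006 and -0.015. The siLAPTM4B and siControl withdrawal comparisons share no arrays, but each shares arrays with both knockdown comparisons.

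Knockdown of *LAPTM4B* without serum gave 0 calls among the 8 members by limma, against 2.33% of rows, and 4 members had an unadjusted p below 0.05 (*TNFRSF10B* higher, and *TNFSF10*, *TNFRSF10A* and *CFLAR* lower), against 15.1% of rows. A fit with each row's own variance and no sharing across rows, at an unadjusted p below 0.01, called 1 of them (*TNFRSF10B*), and 0 after Benjamini-Hochberg adjustment. The share of all rows that this fit called was not taken, so nothing is read from its counts. *TNFRSF10B* is not among the higher genes that the study listed for serum-starved cells at p below 0.01. The median log2 fold change of the 8 was -0.07, beside 0.007 over all rows. With 10% FBS the count was 1 of the 7 members tested, *TNFRSF10B*, which was higher, against 1.99% of rows higher and 4.08% called in either direction, and nothing is read from this count because the comparison was the one that chose *TNFSF10*. No member of the 7 had a knockdown effect that differed between the media by limma, against 0.262% of rows, and 2 (*TNFRSF10A* and *CFLAR*) had an unadjusted p below 0.05, against 11.0% of rows. There the fit with each row's own variance, at an unadjusted p below 0.01, called 1 of 7 (*TNFRSF10B*), and 0 after adjustment.

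**Figure D2:**
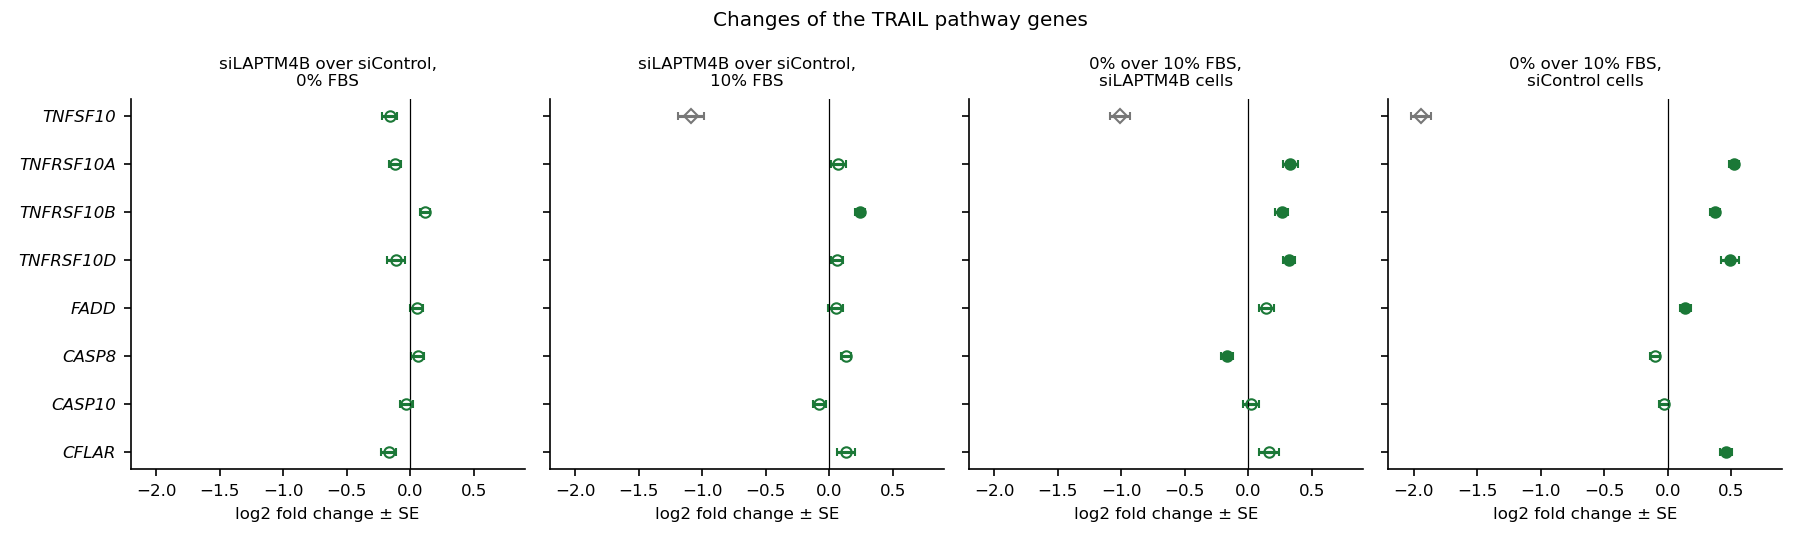
Log2 fold change ± SE of the 8 measured genes in the knockdown comparisons (siLAPTM4B over siControl, left pair) and the withdrawal comparisons (0% over 10% FBS, right pair). Filled circles passed an adjusted p of 0.05, open circles did not, and grey diamonds mark *TNFSF10* where it is a description with no test. *TNFSF10* lies between -1.94 and -1.01 in the 3 comparisons that use the arrays with serum, while *TNFRSF10A*, *TNFRSF10B* and *TNFRSF10D* lie between 0.26 and 0.52 after withdrawal.

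The wider pathway was read from 4 lists of 44 genes, of which 37 had a row of 1 symbol. The others were not analysed here. By limma, knockdown without serum changed 0 of the 37, against 2.33% of all rows, and 4 had an unadjusted p below 0.05, against 15.1% of rows. Knockdown in serum changed 1 of 37, against 4.08% of rows, and this was *DDIT3*, which encodes the stress factor CHOP, an activator of *TNFRSF10B* transcription. *DDIT3* gave 9.15, 9.19 and 9.10 in siLAPTM4B cells with serum, against 9.45, 9.35 and 9.43 in siControl cells with serum, a log2 fold change of -0.26 ± 0.05 (SE, adjusted p = 0.024), and the groups did not overlap. Without serum it gave -0.19 ± 0.06 (unadjusted p = 0.011, adjusted p = 0.16), where the groups did not overlap either. The call in serum was lost in 7 of 15 alternatives, with adjusted p up to 0.095, including when any array but siLAPTM4B replicate 2 was left out. Over the 37 genes the median log2 fold change was 0.02 in each medium, beside 0.007 without serum and 0.004 with serum over all rows.

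After serum withdrawal pathway genes were called in both directions, as were rows at large. In siLAPTM4B cells 5 of 37 were higher, against 9.74% of all rows, and 6 lower, against 11.0% of rows. In siControl cells 6 were higher, against 13.2% of rows, and 9 lower, against 12.9%. Apart from the lower genes in siControl cells, these counts lie near the shares over all rows. None was tested against its share, so they are not read as a response of the pathway as a set. The siLAPTM4B count of 11 was 6 without replicate 2 or 3 of the arrays without serum and 7 without replicate 1 or 3 of those with serum. With the replicate number as a block the siControl count of 15 was 16, with *TNFRSF1B*, a receptor of tumour necrosis factor, added. Among the 10 genes downstream of the receptor complex, the apoptosome scaffold *APAF1* rose by 0.23 ± 0.06 in siLAPTM4B cells (log2, SE, adjusted p = 0.031 by limma) and by 0.36 ± 0.04 in siControl cells (adjusted p = 0.00059). *BID*, the caspase-8 substrate that links the receptors to mitochondria, rose by 0.19 ± 0.05 in siLAPTM4B cells (adjusted p = 0.038) and by 0.14 ± 0.04 in siControl cells (adjusted p = 0.035). The apoptosome caspase gene *CASP9* was lower, with -0.35 ± 0.07 in siLAPTM4B cells and -0.34 ± 0.04 in siControl cells, as was *DFFA*, the inhibitor of the caspase-activated nuclease, with -0.32 ± 0.05 in siLAPTM4B cells and -0.22 ± 0.05 in siControl cells. The calls of *BID* were lost in 9 of 15 alternatives in siLAPTM4B cells and 6 of 15 in siControl cells, and that of *APAF1* in siLAPTM4B cells in 7 of 15. The *DFFA* call in siControl cells was lost in 2 of 15, in fits with each row's own variance. The executioner caspase gene *CASP6* was called higher in siControl cells only, with 0.21 ± 0.07 in siLAPTM4B cells (adjusted p = 0.063) and 0.31 ± 0.05 in siControl cells (adjusted p = 0.0032), and the mitochondrial protease gene *HTRA2* passed in siLAPTM4B cells (0.17 ± 0.05, adjusted p = 0.032) but not in siControl cells (0.12 ± 0.05, adjusted p = 0.11). The *HTRA2* call was lost in 7 of 15 alternatives, including when any array but siLAPTM4B replicate 1 without serum was left out, with adjusted p up to 0.11. Neither gene's withdrawal effect differed between the siRNA groups past the threshold (adjusted p = 0.74 and 0.82). Of the 37 genes, 0 had a withdrawal effect that differed between the siRNA groups by limma, against 0.262% of rows. An unadjusted p below 0.05 was seen for 2, against 11.0% of rows. A call in 1 siRNA group alone is thus not read as a difference between the groups.

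Among the 11 measured inhibitors and modifiers, *TNFAIP3*, which encodes the ubiquitin-editing enzyme A20, gave 6.54, 6.29 and 6.62 in siLAPTM4B cells without serum, against 7.02, 7.17 and 7.04 in siLAPTM4B cells with serum. In siControl cells it gave 6.52, 6.52 and 6.50 without serum, against 6.90, 6.76 and 6.87 with serum. The media separated in both siRNA groups, with log2 fold changes of -0.60 ± 0.09 in siLAPTM4B cells (SE, adjusted p = 0.00095 by limma) and -0.33 ± 0.05 in siControl cells (adjusted p = 0.0014). *BIRC2*, the ubiquitin ligase cIAP1, was also lower, with -0.48 ± 0.06 in siLAPTM4B cells and -0.33 ± 0.05 in siControl cells, whereas the caspase inhibitor *XIAP* was higher in siControl cells (0.21 ± 0.05, adjusted p = 0.0099) with 0.09 ± 0.07 in siLAPTM4B cells (adjusted p = 0.45). *TNFRSF11B*, the soluble receptor osteoprotegerin that also binds TRAIL, gave -0.14 ± 0.05 in siLAPTM4B cells (adjusted p = 0.095) and was lower in siControl cells with -0.27 ± 0.05 (adjusted p = 0.005). The withdrawal effects of *TNFAIP3*, *XIAP* and *TNFRSF11B* did not differ between the siRNA groups past the threshold. The glycosyltransferase gene *GALNT3* was called lower in both siRNA groups (-0.39 and -0.38), but its signals lay below the lower quartile on 8 of 12 arrays and neither call held when such values were set to the quartile.

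The 8 other death ligands and receptors were all measured. *TNFRSF25*, the death receptor DR3, rose by 0.41 ± 0.06 in siLAPTM4B cells (log2, SE, adjusted p = 0.0017 by limma) and by 0.30 ± 0.05 in siControl cells (adjusted p = 0.0032), and *TNFRSF1A*, the receptor of tumour necrosis factor, was lower, with -0.19 ± 0.05 in siLAPTM4B cells and -0.15 ± 0.04 in siControl cells. The *TNFRSF1A* calls were lost in 5 of 15 alternatives in siLAPTM4B cells and 7 of 15 in siControl cells. The ligand genes *FASLG*, *TNF* and *TNFSF15* and the receptor gene *FAS* passed in no comparison. Their signals lay low, at percentiles of 26.3 to 37.5 of the arrays, which limits what can be said about them. Among the 8 measured regulators, *ATF4* rose in siLAPTM4B cells by 0.20 ± 0.05 (adjusted p = 0.02) and in siControl cells by 0.21 ± 0.04 (adjusted p = 0.0086). *FOXO1* gave -0.18 ± 0.06 in siLAPTM4B cells (adjusted p = 0.066) and was lower in siControl cells with -0.21 ± 0.04 (adjusted p = 0.0062), and *DDIT3* gave -0.16 ± 0.06 in siLAPTM4B cells (adjusted p = 0.074) and was lower in siControl cells with -0.24 ± 0.05 (adjusted p = 0.0093). The withdrawal effects of *FOXO1* and *DDIT3* did not differ between the siRNA groups past the threshold.

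**Figure D3:**
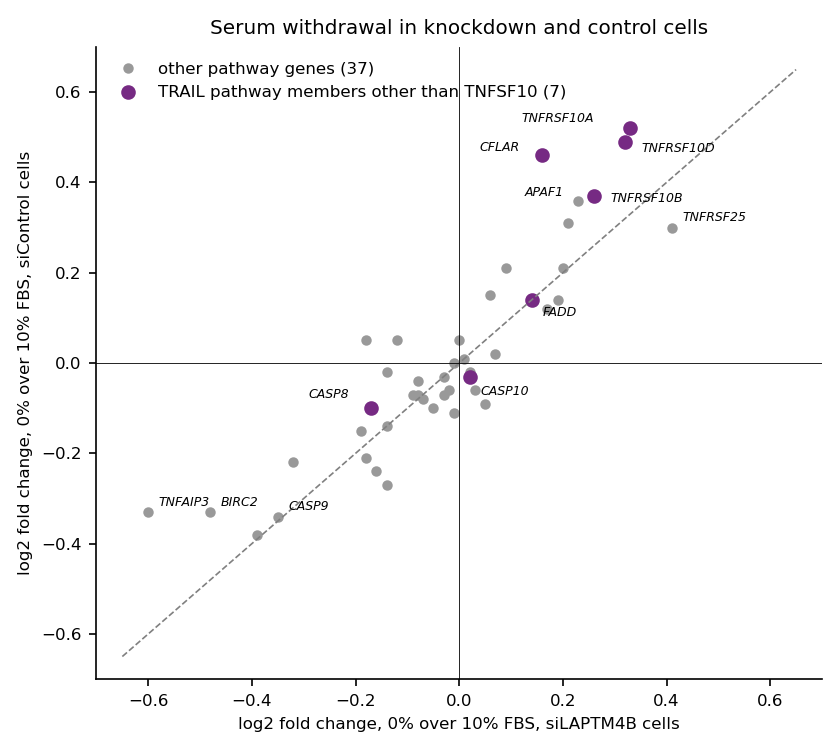
Log2 fold change after serum withdrawal (0% over 10% FBS) in siLAPTM4B cells (horizontal axis) and siControl cells (vertical axis) for 7 TRAIL pathway members (purple) and 37 other pathway genes (grey). The dashed line marks equal changes, and *TNFSF10*, at -1.01 and -1.94, lies outside the axes. *CFLAR*, at 0.16 and 0.46, lies above the line, and *TNFAIP3*, at -0.60 and -0.33, also lies above it. No gene drawn differed between the siRNA groups past an adjusted p of 0.05 by limma.

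The genes whose signals most resembled *TNFSF10* over the 12 arrays were taken by Pearson's r, as a description that mostly reflects the 4 groups. The closest were *IGFBPL1*, related to the insulin-like growth factor binding proteins (r = 0.991, Spearman's rho = 0.97), *FHL2*, a LIM domain protein (0.986 and 0.94), *PTGES*, a prostaglandin E synthase (0.982 and 0.93), *ABCG2*, a drug efflux transporter (0.981 and 0.92), and *LRATD2* (0.980 and 0.94). In all, 84 genes had r above 0.95. With the group means removed, r was 0.81 for *IGFBPL1* and 0.24 to 0.43 for the other 4. The 5 were picked from 18417 genes by r over the same arrays, which holds these deviations too, so nothing is read from the 0.81. The most opposed were *UBE4B*, a ubiquitin ligase (r = -0.985), *TM4SF1*, a tetraspan membrane protein (-0.985), and *MMP1*, the interstitial collagenase (-0.984). Of the members, *TNFRSF10B* was the most opposed to *TNFSF10* (r = -0.98 over the 12 arrays and -0.46 with the group means removed).

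*ABCG2* had the widest range of the 5 most similar genes. Its mean log2 signal without serum was 5.84 in siLAPTM4B cells and 6.15 in siControl cells. With serum the means were 7.00 in siLAPTM4B cells and 7.81 in siControl cells. Without serum its signals in siLAPTM4B cells (5.76, 5.75 and 5.99) lay below the lower quartile of the arrays (6.14 to 6.19). Those in siControl cells (6.26, 6.08 and 6.10) lay around it. The part of these low signals in the range of *ABCG2* was not tested. *MMP1* ran the other way, with means of 9.17 in siLAPTM4B cells and 8.98 in siControl cells without serum, and 8.48 in siLAPTM4B cells and 7.66 in siControl cells with serum. For both genes, as for *TNFSF10*, the siLAPTM4B cells in serum lay between siControl cells in serum and the groups without serum. Both genes were picked by their likeness or opposition to *TNFSF10* over these arrays, so this order was built into the choice.

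**Figure D4:**
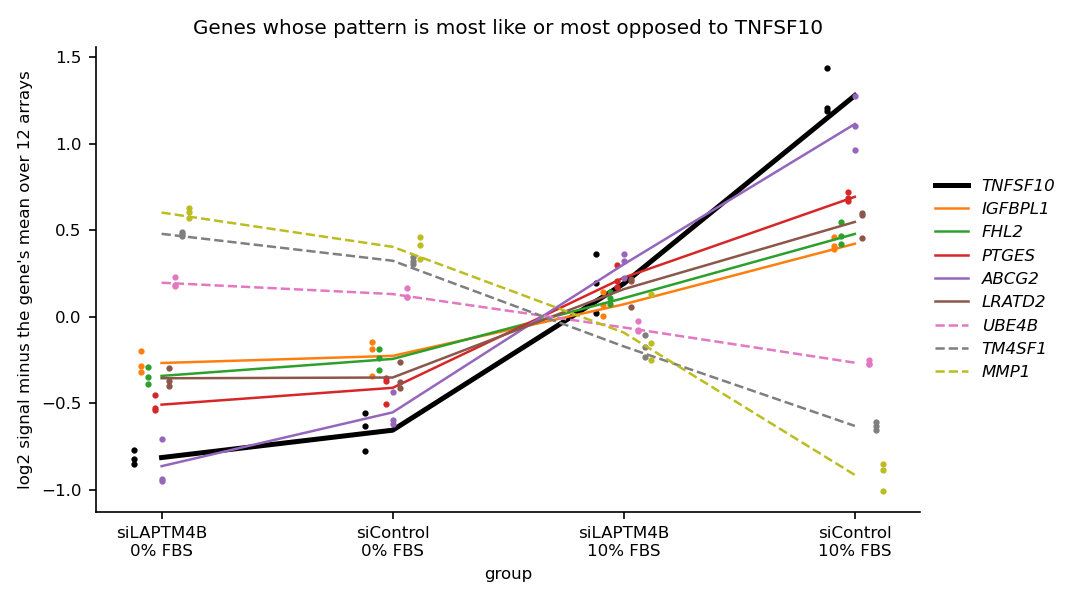
Log2 signal minus the gene's mean over the 12 arrays for *TNFSF10* (thick black line), the 5 genes most like it (solid lines) and the 3 most opposed to it (dashed lines). Points are arrays and lines join the group means, with *TNFSF10* group means at 5.51, 5.67, 6.52 and 7.61 from left to right before the mean was taken off.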

How the data were processed

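RNA of the 12 Calu-6 samples was hybridised to Affymetrix Human Gene 1.0 ST arrays. The authors deposited 1 table of RMA values on the log2 scale (background-corrected, quantile-normalized and summarised per row), which was used as deposited, with no filter on low signals and no detection p-values, so the number of arrays limits the precision. Of 33252 rows, 19460 carried 1 gene symbol in the platform annotation, 1754 several and 12038 none. Each comparison was fitted on its own 6 arrays (all 12 for the difference between media) with limma 3.58.1 in R 4.3.3, two-sided, with Benjamini-Hochberg adjustment over the 19460 rows and a call at an adjusted p below 0.05, after a test on simulated data. An exact permutation test of 3 against 3 arrays cannot go below p = 0.1. The members and gene lists were chosen with earlier results of these data known. Named genes were the members, *LAPTM4B*, pathway genes called in a comparison (up to 4 per list and direction), and the 5 genes most like and 3 most opposed to *TNFSF10*; *IRF1*, *FAS*, *FASLG*, *TNF*, *TNFSF15*, *TNFRSF1B*, *CYLD* and the marker genes were added after their values were seen. Same-numbered siControl arrays of the 2 media deviated together (correlations of 0.37, 0.13 and 0.20, all above a limit of 0.1). The fit with the replicate number as a block is therefore given there where it changed a call. The siLAPTM4B arrays without serum and the siControl arrays with serum, which no comparison sets side by side, gave 0.48, 0.18 and 0.35. What the shared number stands for was not tested. Promoter sequences came from RefSeq (GRCh38.p14). The alternatives were the replicate block, each array left out, adjustment over all rows, dim rows left out and an intensity trend with robust variance. Others were median centring, a signal floor, 1 fit of all arrays and a fit with each row's own, unshared variance. The last was read at the study's unadjusted p below 0.01 and after adjustment. The study's microarray methods name no test, while its statistics section names ANOVA and Student's t-test for the in vitro experiments. For pathway genes the alternatives were added after the data were seen.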

Additional observations from a re-analysis of the deposited data

Results flagged for a closer look

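The knockdown effect on *TNFSF10* without serum minus that with 10% FBS was 0.93 on the log2 scale. It was flagged because its adjusted p by limma fell below 0.05. That p rests on the arrays in serum that chose *TNFSF10*, so it is not read as a test. The siLAPTM4B and siControl arrays did not overlap in serum and overlapped without serum. The difference is given with no test, since *TNFSF10* was chosen by its values in serum, and all 6 signals without serum lay below the lower quartile of their arrays, whose part in the difference was not tested beyond the signal floor, under which the difference was 1.10.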

How the results depend on the processing

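Of 640 recalculated values of the members, 602 counted as unchanged, 27 lost a call, 9 gained one, 2 moved (*TNFSF10* withdrawal with the signal floor) and 0 reversed. Unchanged meant the same direction where called and the same side of the threshold. For *TNFSF10* values with no test it meant the same direction and a move smaller than the gene's largest SD in a group. For the called pathway genes 344 of 403 kept their call, 59 lost it and 0 reversed. *LAPTM4B* stayed called under every alternative run, with log2 fold changes of -1.44 to -1.40 without serum and -1.77 to -1.74 in serum when 1 array was left out. Knockdown without serum called 0 members, 1 with the intensity trend and robust variance, 1 with each row's own variance at an unadjusted p below 0.01, and 0 to 0 with 1 array left out. Knockdown in serum called 1 member, 0 with adjustment over all rows, 0 with each row's own variance after adjustment, 2 with each row's own variance at an unadjusted p below 0.01 (*TNFRSF10B* and *CASP8*), and 0 to 0 with 1 array left out. Withdrawal in siLAPTM4B cells called 4 members, 2 with each row's own variance after adjustment (*TNFRSF10B* and *TNFRSF10D*) and 3 to 4 with 1 array left out, and in siControl cells 5, with 4 to 5. The difference between media called 0 members, 1 with each row's own variance at an unadjusted p below 0.01, and 0 to 0 with 1 array left out. Shares over all rows were not taken for the alternatives, so their counts show only how the calls depend on the processing. Pathway genes called after withdrawal in siLAPTM4B cells numbered 11, and 6 without replicate 2 or 3 of the arrays without serum and 7 without replicate 1 or 3 of those with serum. The replicate block moved *FADD* withdrawal in siControl cells to an adjusted p of 0.061 (4 members called) and *BID* withdrawal in siLAPTM4B cells to 0.054, added calls of *CASP6*, *CYLD* and *FOXO1* in siLAPTM4B cells (13 pathway genes) and *TNFRSF1B* in siControl cells (16), and changed no other call of a member or pathway gene. Between siLAPTM4B and siControl the same-number correlations were 0.39, 0.069 and 0.18 without serum and 0.37, 0.15 and -0.079 in serum. Not all passed the limit of 0.1 in either medium, so the numbers were not taken to pair those arrays. The withdrawal calls of *APAF1* and *ATF4* in siLAPTM4B cells were lost without replicate 2 or 3 of the arrays without serum and without replicate 1 or 3 of those with serum. The causes of these changes were not tested. Without detection p-values, low signals such as those of *CASP10* could not be told from background.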
